A study of Mus musculus with 3 samples.

Results

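NR2F2 (COUP-TFII), a nuclear receptor of interstitial progenitor cells, bound the fetal testis genome at sites whose nearest genes included 29 of 54 genes of the Wnt signalling pathway (53.7%), against 33.2% of protein-coding genes. With predicted transcripts in the annotation it was 22 of 54 (40.7%), against 31.3%. The nearest gene was taken at any distance. A peak within 10 kb of a transcription start site was found for 19 of 54 (35.2%), against 34.3%. The 54 genes were a fixed list of 17 Wnt ligands, the ligand-processing enzyme Porcn, 10 Frizzled receptors, 5 co-receptors, 4 R-spondins and R-spondin receptors, 5 secreted inhibitors, 8 cytoplasmic signal relay proteins and 4 TCF/LEF transcription factors. A peak was taken for a gene when the nearest transcription start site (TSS) among curated RefSeq transcripts belonged to that gene, or when it lay within 50 kb of one of its TSSs. By this rule 63 of the 10069 deposited peaks were taken: 45 had a listed gene as the nearest gene, and 18 lay within 50 kb of a listed gene with another gene nearer.

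Chromatin came from testes of the CD-1 mouse strain, dissected whole from E14.5 embryos (E is the embryonic day). No allele or treatment is named for these animals, and 30 testes were pooled for each of 2 independent immunoprecipitations. There were thus 2 NR2F2 ChIP libraries, and 1 input library, the input being chromatin sequenced without the antibody. The 10069 peaks held 426784 reads in ChIP replicate 1, 364261 in ChIP replicate 2 and 73251 in the input. These totals cover peaks only, so ChIP and input counts can be set against each other only up to the unknown difference in library depth. Whole testis contains interstitial, Sertoli, germ, endothelial and other cells, and the cell type in which a peak was bound cannot be told from these libraries.

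Wnt ligands are secreted lipid-modified proteins that bind Frizzled receptors on neighbouring cells. In the β-catenin branch, Frizzled and the co-receptors Lrp5 or Lrp6 recruit Dishevelled (Dvl) proteins, which halt the destruction complex of Axin, Apc and Gsk3b, and β-catenin (Ctnnb1) then enters the nucleus and acts with TCF/LEF factors. In other branches, ligands such as Wnt5a act through Ror1, Ror2 or Ryk on cell shape and movement. In the gonad, Wnt4 and Rspo1 are best known as promoters of ovarian development, and Wnt5a is a marker of interstitial cells of the fetal testis.

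The sequences of a few peaks are shown first, and the shares of peaks with each motif are given further below. NR2F2 and its relatives recognise the hexamer AGGTCA or GGGTCA, alone, with 2 further 5′ bases (AGAGGTCA or AGGGGTCA, called the extended motif here), or as a direct repeat of hexamers with 1 base between them (DR1). All sequences are the plus strand of mm10 as held by RefSeq GRCm38, and capitals mark the DR1 and the extended motif or, where a peak has neither, its hexamers. On the minus strand these read as their reverse complement. The strongest peak of the list by ChIP count lay 28341 bp downstream of the Wnt4 TSS, at chr4:137305976-137306275, and held a single hexamer.

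Wnt4: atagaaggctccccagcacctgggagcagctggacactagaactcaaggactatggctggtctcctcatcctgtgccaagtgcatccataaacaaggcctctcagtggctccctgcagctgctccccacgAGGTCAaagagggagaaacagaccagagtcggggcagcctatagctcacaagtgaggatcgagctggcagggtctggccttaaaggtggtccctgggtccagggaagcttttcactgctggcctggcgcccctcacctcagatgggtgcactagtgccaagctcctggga

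The second strongest lay 14328 bp downstream of the Wnt10a TSS, at chr1:74806347-74806646, and held an extended motif.

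Wnt10a: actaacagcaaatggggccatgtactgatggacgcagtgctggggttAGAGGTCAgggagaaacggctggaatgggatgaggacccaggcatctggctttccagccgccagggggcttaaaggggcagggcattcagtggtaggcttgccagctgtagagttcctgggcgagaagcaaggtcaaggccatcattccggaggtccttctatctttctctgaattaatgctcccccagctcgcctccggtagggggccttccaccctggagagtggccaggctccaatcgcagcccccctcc

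The Axin2 and Lef1 peaks were the 2 of the 45 nearest-gene peaks with a DR1 (4.44%, against 2.37% of all peaks). Both genes are textbook transcriptional targets of Wnt signalling as well as members of the pathway. With predicted transcripts in the annotation, both peaks had another gene nearer. The Axin2 peak lay 17571 bp upstream of the TSS, at chr11:108902479-108902778, and the Lef1 peak 33679 bp upstream, at chr3:131076319-131076618. Both held the same 13 letters, AGGTCAAAGGTCA, on the minus strand, and at Axin2 an extended motif overlapped them.

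Axin2: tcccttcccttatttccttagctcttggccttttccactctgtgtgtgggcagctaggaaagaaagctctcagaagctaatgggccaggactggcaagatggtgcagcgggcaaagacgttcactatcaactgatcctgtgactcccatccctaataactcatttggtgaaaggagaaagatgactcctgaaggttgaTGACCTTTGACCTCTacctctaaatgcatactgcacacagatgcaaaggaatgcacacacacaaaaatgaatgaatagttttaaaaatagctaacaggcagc
Lef1: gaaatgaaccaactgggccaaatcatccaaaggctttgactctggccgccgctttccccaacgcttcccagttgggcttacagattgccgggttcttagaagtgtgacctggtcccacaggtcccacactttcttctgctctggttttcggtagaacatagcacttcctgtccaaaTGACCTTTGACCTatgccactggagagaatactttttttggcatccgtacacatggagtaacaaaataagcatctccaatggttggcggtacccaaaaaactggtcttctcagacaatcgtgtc

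The Wnt5a gene body peak, at chr14:28522551-28522850, is shown because it overlaps a coding exon, 11146 bp downstream of the nearest Wnt5a TSS.

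Wnt5a: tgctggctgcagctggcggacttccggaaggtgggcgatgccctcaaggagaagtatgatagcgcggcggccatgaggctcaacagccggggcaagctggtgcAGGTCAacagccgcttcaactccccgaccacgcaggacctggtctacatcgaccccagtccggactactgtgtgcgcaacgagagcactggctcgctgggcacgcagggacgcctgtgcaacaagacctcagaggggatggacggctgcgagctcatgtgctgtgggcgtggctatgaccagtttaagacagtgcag

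The other extended motifs among the nearest-gene peaks are shown as windows of 30 bases, for Wnt5a at chr14:28555261-28555290, Fzd5 at chr1:64738175-64738204, Fzd9 at chr5:135286379-135286408 and Dkk1 at chr19:30549405-30549434.

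Wnt5a downstream: caggctcacctTGACCCCTtggtcttttgt
Fzd5: ttaaagggatgAGAGGTCAattcggttgtg
Fzd9: gtgagcatcccAGGGGTCAatggctgcgac
Dkk1: gtcaggaaaagAGAGGTCActttgcacggc

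The first question was which members had a peak at all. A nearest-gene peak was found for 29 of the 54 (53.7%), against 6977 of 21000 protein-coding genes (33.2%). A further 8 had a peak within 50 kb but another gene nearer, and 17 had neither. Together 37 members (68.5%) had a peak by either criterion, against 57.9% of protein-coding genes. Within 10 kb of a TSS, whichever gene was nearest, a peak was found for 19 members (35.2%), against 34.3% of protein-coding genes. Shares of genes and of peaks are given as a description, here and below, with no test. Members with a nearest-gene peak numbered 22 of 54 (40.7%), against 31.3% of protein-coding genes, when predicted transcripts were added to the annotation, because 20 of the 45 peaks then had a predicted non-coding transcript nearer, those of Wnt10a, Wnt7b and the upstream Axin2 peak among them.

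Several members held more than 1 peak: 10 (18.5%) were nearest to at least 2, against 6.4% of protein-coding genes, and 5 (9.26%) to at least 3, against 1.55%. These 5 were Wnt5a with 4 peaks and Wnt7b, Wnt10a, Fzd7 and Apc with 3 each. With predicted transcripts, an alternative added here after seeing the data, this no longer held: 2 members (3.7%), Apc and Wnt5a, were nearest to at least 2 peaks, against 4.69% of protein-coding genes, and only Apc to at least 3 (1.85% against 0.776%).

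By role, a nearest-gene peak was found for 7 of 17 ligands, 6 of 10 Frizzled receptors, 4 of 5 co-receptors, 2 of 4 R-spondins and R-spondin receptors, 2 of 5 secreted inhibitors, 5 of 8 relay proteins and 3 of 4 TCF/LEF factors. The shares of the ligands (41.2%) and secreted inhibitors (40%) lay near the 33.2% of all protein-coding genes. Porcn, which attaches the lipid to Wnt ligands, had only a peak at the TSS of Tbc1d25 (16 and 18 ChIP reads over 6 input reads), 30595 bp away.

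**Figure D1:**
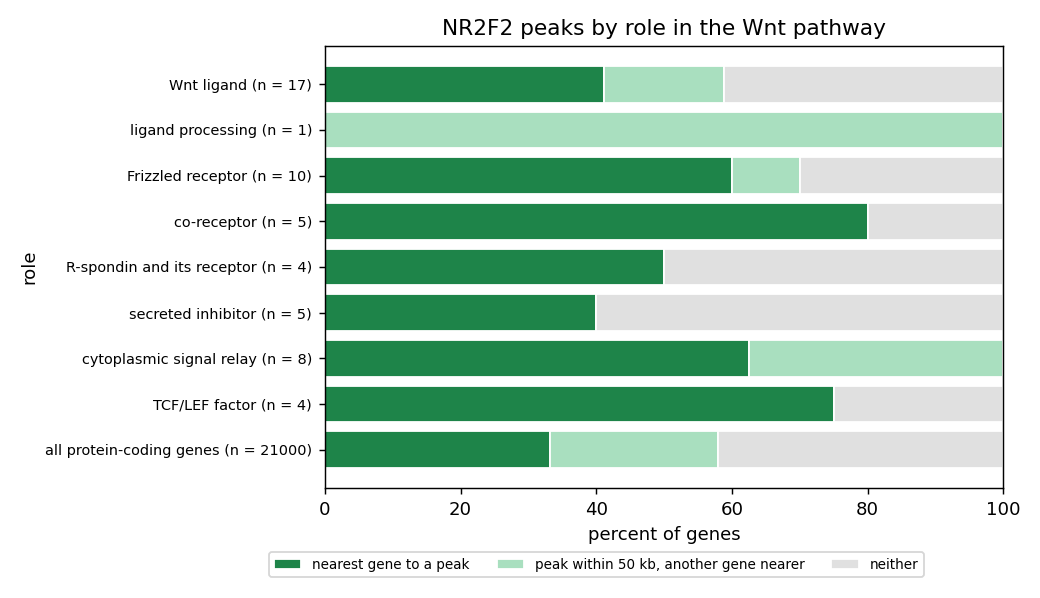
Percent of genes (x axis) in each role of the Wnt pathway, and among all protein-coding genes, that were nearest to an NR2F2 peak (dark), had one within 50 kb with another gene nearer (light), or neither (grey). All 8 relay genes had a peak by either criterion, 3 of them only with another gene nearer, as had 4 of 5 co-receptors. Of the ligands 7 of 17 (41.2%) had neither, and of the secreted inhibitors 3 of 5 (60%), against 42.1% of protein-coding genes.

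The 4 nearest-gene peaks with the highest summed ChIP counts belonged to the ligands Wnt4 and Wnt10a (3 peaks), and most ligand peaks lay far from the TSS. The ligands had 14 nearest-gene peaks, 4 of them at Wnt5a, 3 at Wnt7b and 3 at Wnt10a. These 14 peaks had a median of 46.5 reads in ChIP replicate 1, 42 in ChIP replicate 2 and 6 in the input, against 37, 31 and 7 over all peaks. None of the 14 was TSS proximal (overlapping a TSS or up to 1 kb upstream), against 36% of all peaks, and 12 (85.7%) lay more than 10 kb from the TSS, against 32.9%. With predicted transcripts 6 ligand peaks remained, and 4 of them (66.7%) lay beyond 10 kb, against 25.7% of all peaks. The Wnt4 peak held 118 reads in ChIP replicate 1, 94 in ChIP replicate 2 and 16 in the input. Its summed ChIP count stood at the 98.4th percentile of all peaks, but its input count was also the highest of the 63 peaks, together with that of the peak at Mrpl20. Relative to the typical peak, which the scaling of the libraries sets at a log2 ChIP to input ratio of 0, it stood at 0.41 ± 0.37 (SE), which did not pass the test (edgeR quasi-likelihood test, adjusted p = 0.817).

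Wnt10a, a ligand of the β-catenin branch, had 3 peaks within 10735 bp, all beyond the end of the gene. The peak at +14328 bp held 99 and 94 ChIP reads and 6 input reads. The peak at +24763 bp held 99 and 69 ChIP reads and 5 input reads. Between them, the peak at +15611 bp held 93 and 72 ChIP reads and 11 input reads. In each of the 3 both ChIP libraries lay far above the input, with ChIP to input count ratios at the first of 16.5 (95% exact interval 7.32 to 46.0, counting error only) in replicate 1 and 15.7 (6.93 to 43.8) in replicate 2. The Wnt10a peaks also lay 34455, 44890 and 35738 bp from the TSS of Wnt6, the ligand gene next to it, and the counts do not tell which of the 2 genes, if either, they act on.

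Wnt5a, a ligand of the β-catenin-independent branches, had 4 peaks spread over 435623 bp. In the coding exon at +11146 bp there were 52 and 38 ChIP reads over 15 input reads. At -94194 bp, within an intron of the neighbouring gene Erc2, there were 32 and 42 ChIP reads over 3 input reads. The remaining peaks were weaker, with 19 and 20 ChIP reads over 4 input reads at +43763 bp and 15 and 19 over 6 at -385329 bp, again inside Erc2. The exon peak had the most ChIP reads of the 4 but also the most input reads, and its ChIP to input ratios of 3.47 (1.92 to 6.63) and 2.53 (1.36 to 4.96) were below those at -94194 bp, 10.7 (3.34 to 54.4) and 14.0 (4.47 to 70.6). The intervals of the 2 peaks overlapped in both replicates, and no Wnt5a peak overlapped the TSS or its upstream 10 kb.

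Wnt7b, a β-catenin branch ligand, had 3 upstream peaks over 23949 bp. They held 64, 40 and 41 reads in ChIP replicate 1, 54, 33 and 30 in ChIP replicate 2 and 12, 7 and 8 in the input, at -28986, -43813 and -52635 bp. Relative to the typical peak, the log2 ratios of the 3 lay between -0.17 and 0.06. Wnt2b had 1 peak at -6146 bp, with 59 and 42 ChIP reads over 4 input reads. Wnt16 had 1 peak at -52712 bp in an intron of Cped1, with 38 and 44 ChIP reads over 6 input reads. Wnt2 had the only ligand peak within 1 kb of a TSS, in its coding exon at +77 bp, with 27 and 18 ChIP reads over 2 input reads. Wnt1 and Wnt10b, which are neighbours, had only the peak at the Arf3 TSS, with 43 and 33 ChIP reads over 9 input reads. Wnt6 had, beside the Wnt10a peaks, the peak nearest to Prkag3, with 38 and 26 over 10. Wnt3, Wnt3a, Wnt5b, Wnt7a, Wnt9a, Wnt9b and Wnt11 had no peak within 50 kb and were nearest to none.

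**Figure D2:**
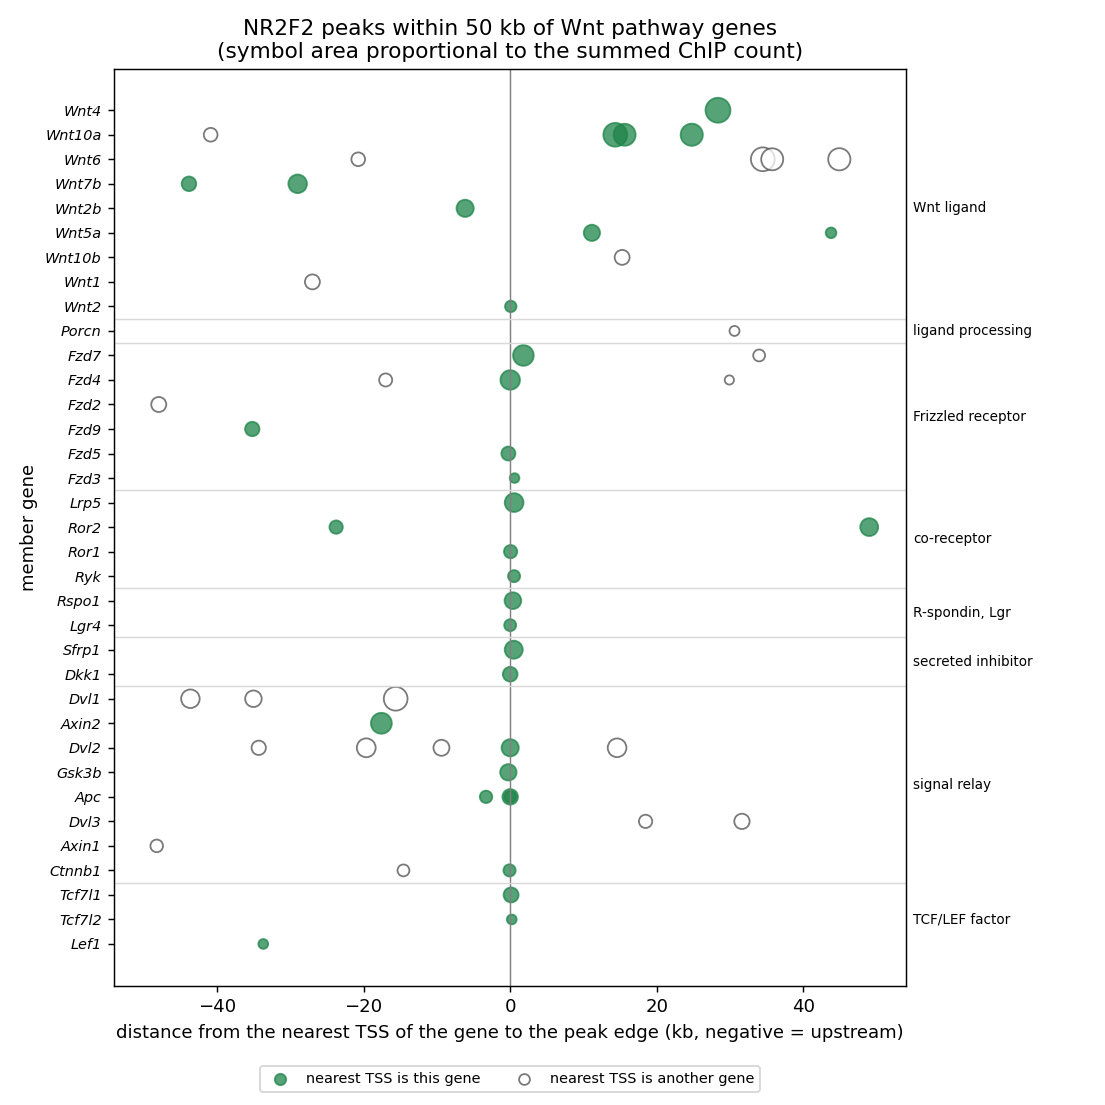
Peaks within 50 kb of each member gene (rows, grouped by role), placed by the distance from the nearest TSS of the gene to the peak edge in kb (x axis, negative is upstream). Filled circles are peaks whose nearest TSS is that gene, open circles have another gene nearer, and the area is proportional to the summed ChIP count. Apart from that of Wnt2, the filled ligand circles lie away from the TSS, the largest at Wnt4 and Wnt10a, while most filled receptor and relay circles lie at or near it.

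Among the Frizzled receptors, which bind the ligands through an extracellular cysteine-rich domain, the strongest peak lay in the coding exon of Fzd7 at +1800 bp, with 84 and 62 ChIP reads over 10 input reads. Fzd7 had 2 further peaks at -87238 bp (42 and 34 over 10) and -105654 bp (31 and 20 over 8). Fzd4, the receptor of norrin as well as of Wnts, had 68 and 62 ChIP reads over 10 input reads at its TSS, where the TSS of Tmem135 also lies. Fzd5 and Fzd9 were the Frizzled genes with an extended motif in a peak. The Fzd5 peak, at -248 bp, held 36 and 31 ChIP reads over 7 input reads, and the Fzd9 peak, at -35176 bp, held 40 and 31 over 9.

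The weakest nearest-gene peaks of this family were those of Fzd3 and Fzd8. At Fzd3, +595 bp in an intron, 19 and 13 ChIP reads stood over 1 input read, the lowest input count of the 63 peaks, so its ratio is poorly known. The Fzd8 peaks lay 501386 and 560930 bp upstream, with 16 and 16 ChIP reads over 3 input reads and 18 and 19 over 8, and Fzd8 had none within 50 kb. Fzd2 had only the peak at the Gpatch8 TSS, 47932 bp upstream (41 and 36 over 12). Fzd1, Fzd6 and Fzd10 had none.

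Of the co-receptors, Lrp5, the partner of Frizzled in the β-catenin branch, held a peak in its first kilobase (+537 bp, intron) with 63 and 57 ChIP reads over 11 input reads. Its close relative Lrp6 had no peak within 50 kb. The receptor tyrosine kinase-like proteins that receive Wnt5a all had peaks. Ror2 had 63 and 46 ChIP reads over 11 input reads in an intron at +48970 bp and 39 and 22 over 7 at -23741 bp. Ror1 had 36 and 24 over 8 at +54 bp, and Ryk had 27 and 23 over 6 at +529 bp.

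Rspo1, a secreted amplifier of Wnt signalling, had a peak at +370 bp in an intron, with 40 and 55 ChIP reads over 12 input reads. Its receptor gene Lgr4 had 28 and 21 ChIP reads over 7 input reads at the TSS, whereas Rspo3 and Lgr5 had no peak. Of the secreted inhibitors, Sfrp1, a decoy that binds Wnts, had 50 and 61 ChIP reads over 15 input reads in a coding exon at +484 bp. Dkk1, which blocks Lrp5 and Lrp6, had 54 reads in ChIP replicate 1 but only 20 in ChIP replicate 2, over 8 input reads, at its TSS. Sfrp2, Dkk2 and Dkk3 had none.

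Among the relay proteins, Axin2, a scaffold of the destruction complex, had the strongest nearest-gene peak, with 66 and 83 ChIP reads over 13 input reads at the DR1 shown above. Its second peak, at +74753 bp, held 33 and 21 over 10. The other nearest-gene peaks of this role mostly lay at the TSS, as 5 of 8 were TSS proximal: Dvl2 held 53 and 48 over 12, Gsk3b 52 and 40 over 10 and Ctnnb1 29 and 22 over 7. The scaffold Apc had peaks at 2 alternative TSSs, with 45 and 38 ChIP reads over 10 input reads at one and 37 and 10 over 3 at the other, and 1 more between them in an intron, with 35 and 18 over 6. The second of these Apc peaks, like that of Dkk1, had far more reads in ChIP replicate 1, but neither gap passed the test given below after adjustment.

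The Dishevelled genes sit among other genes with bound promoters. The strongest peak within 50 kb of a relay gene was at Aurkaip1, 15619 bp from Dvl1, with 103 and 89 ChIP reads over 11 input reads. Dvl1 also lay within 50 kb of the peaks at Mrpl20 (60 and 57 over 16) and Ccnl2 (47 and 46 over 6). Around Dvl2 were the peaks at Ctdnep1 (72 and 49 over 7), Acadvl (68 and 51 over 9) and Gabarap (44 and 43 over 7), and near Dvl3 the peak at Abcf3 (44 and 36 over 13). Of the 18 peaks with another gene nearer, 14 (77.8%) lay within 1 kb of that gene's TSS, as did 58% of all peaks with their nearest gene. Axin1 had only the peak at Decr2, 48212 bp away (27 and 27 over 9). The peaks at Cldn7, Ap2m1, Tmem135, 1700020M21Rik, Gm973 and AI314278 were the remaining ones, with 17 to 48 reads in ChIP replicate 1, 12 to 27 in ChIP replicate 2 and 4 to 9 in the input.

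Of the TCF/LEF factors, which carry β-catenin to DNA, Tcf7l1 had 43 and 34 ChIP reads over 5 input reads in a coding exon at +123 bp, and 24 and 25 over 5 in an intron at +76906 bp. Tcf7l2 had 41 and 51 over 8 at +74610 bp and 18 and 15 over 4 at +212 bp. The Lef1 peak with the DR1 was among the weakest of all, with 13 and 20 ChIP reads over 6 input reads, at the 4.12th percentile of summed ChIP count. Tcf7 had no peak.

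**Figure D3:**
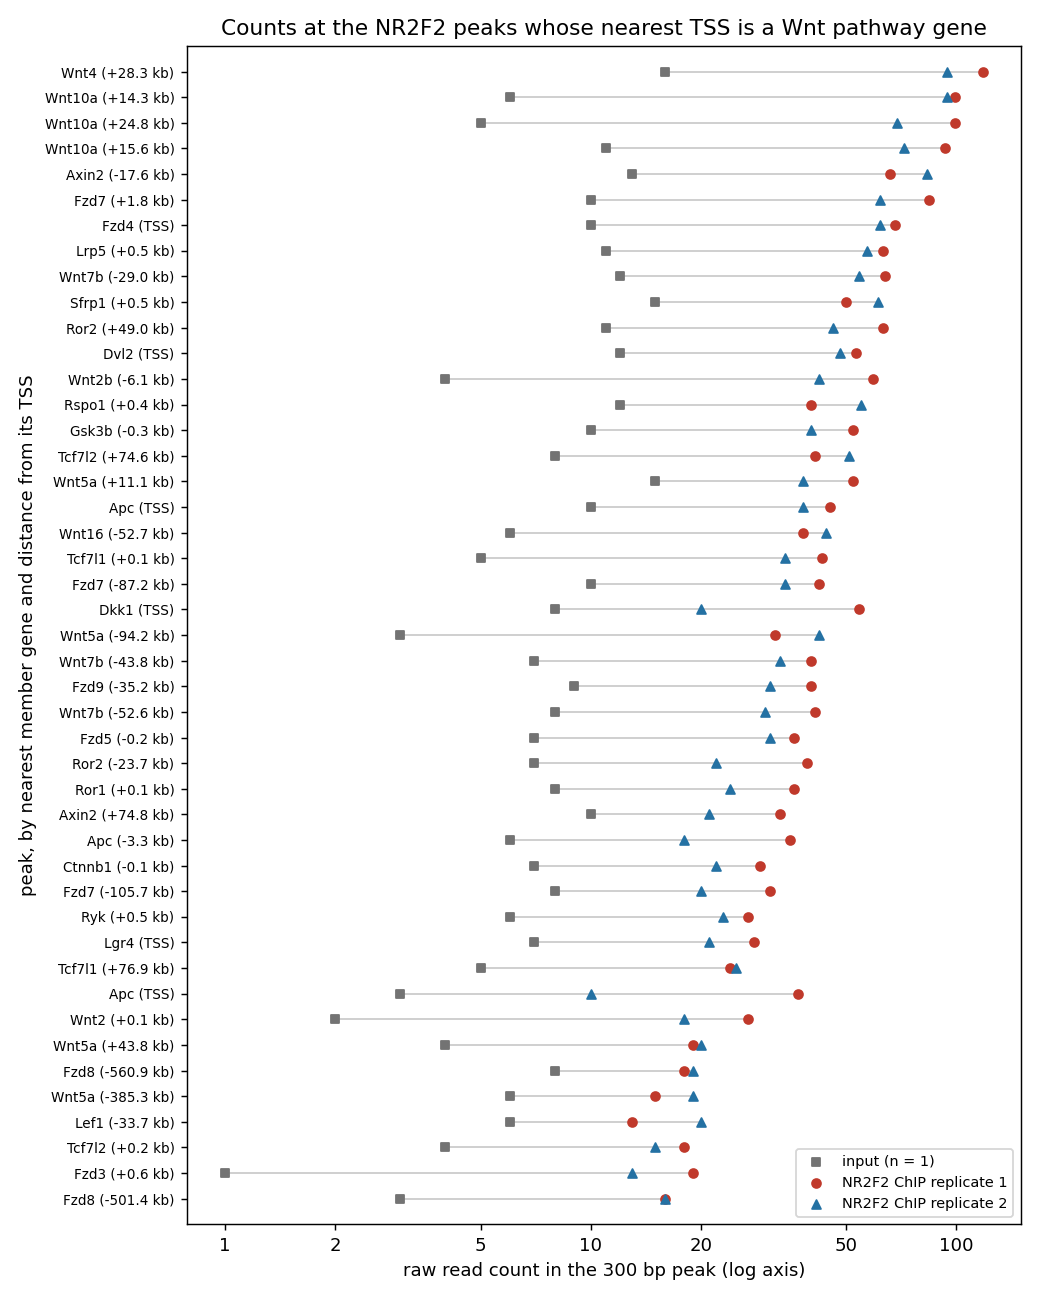
Raw read counts (x axis, log scale) in the input (squares) and ChIP replicates 1 (circles) and 2 (triangles) at the 45 peaks with a member as nearest gene, ordered by summed ChIP count and labelled with the distance from the TSS. In all 45 both ChIP counts exceed the input count, with the input between 1 and 16, and Dkk1 and 1 Apc peak show the widest gaps between the replicates.

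The second question was whether these peaks stood out among NR2F2 peaks. Scaled so that the typical peak has a log2 ChIP to input ratio of 0 (edgeR quasi-likelihood test with TMM factors, Benjamini-Hochberg adjusted over all 10069 peaks), none of the 63 passed in either direction, against 154 peaks above (1.53%) and 5 below (0.0497%) in the whole set. The median of the 63 was -0.12, against 0.016 for all peaks. At an unadjusted p under 0.05 there were 3 (4.76%), against 1051 of all peaks (10.4%). By DESeq2 none passed, but it gave an adjusted p for only 6 of the 63, and for 699 of all peaks, of which 22 passed. The 2 highest values were those of Wnt10a, at 1.69 ± 0.51 (SE, edgeR adjusted p = 0.0528) for the +14328 bp peak and 1.74 ± 0.55 (adjusted p = 0.0798) for the +24763 bp peak. Wnt2b had 1.33 ± 0.66 (adjusted p = 0.461), and the Wnt5a peaks ranged from -0.80 to 1.30, with adjusted p from 0.583 to 0.994. No member peak differed detectably from the typical peak at these input counts.

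With the libraries taken as equally deep, 50 of the 63 peaks had ChIP above input (edgeR quasi-likelihood test, adjusted p under 0.05), 37 of the 45 nearest-gene peaks and 13 of the other 18 (79.4% in all), against 80.7% of all peaks. Since peaks were called on the merged ChIP reads counted here, ChIP counts above the input were at least partly fixed by the choice of peaks. Whether the input served as the control in peak calling is not stated in the methods read here, and if it did, a ChIP count above the input was selected for directly. All 14 ligand peaks passed, among them the 4 of Wnt5a, whose exon peak had the highest adjusted p of them, 0.0482. The 8 nearest-gene peaks that did not pass belonged to Dkk1, Ror1, Ror2 (-23741 bp), Axin2 (+74753 bp), Fzd7 (-105654 bp), Lef1 and Apc (2 peaks). Which peaks passed depended on the fit. With robust fitting 62 of the 63 passed (98.4%, against 97.5% of all peaks), and by DESeq2 35 (55.6% against 59.6%). If the ChIP libraries were 2 times deeper than the input, no peak of the whole set passed by edgeR, the 63 included, and 25 of the 63 (39.7%) had an unadjusted p under 0.05, against 39% of all peaks.

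The third question was how far the ChIP replicates agreed. The test used sets the gap between them against counting error only, not against the spread between pools of testes. No member peak differed between them after adjustment (exact two-sided binomial test against the ratio of the totals at peaks), while 10 of all peaks did (0.0993%), and 5 of the 63 (7.94%) had an unadjusted p under 0.05, against 8.83% of all peaks. The smallest p belonged to the second Apc TSS peak (37 and 10 reads, exact binomial p = 0.000616, adjusted p = 0.151) and Dkk1 (54 and 20 reads, exact binomial p = 0.00099, adjusted p = 0.174). Against an expected share of 1/2, with no scaling for the totals, these 2 peaks passed, each with an adjusted p of 0.044 (exact binomial test), among 23 of all peaks (0.228%). The Axin2 DR1 peak went the other way, with more reads in replicate 2 (exact binomial p = 0.0211, adjusted p = 0.437).

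**Figure D4:**
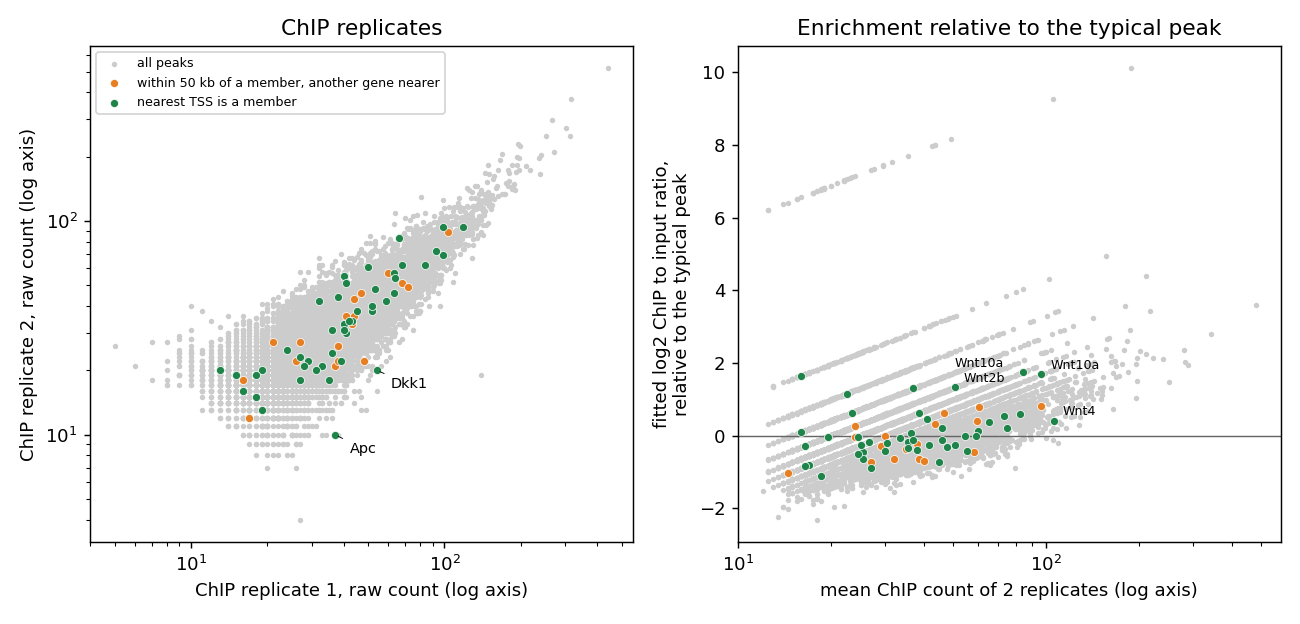
Left, raw counts of ChIP replicate 1 (x) against replicate 2 (y), both on log axes, for all 10069 peaks (grey), the 45 peaks with a member as nearest gene (green) and the 18 with another gene nearer (orange). Right, the fitted log2 ChIP to input ratio relative to the typical peak against the mean ChIP count (log axis). The grey band at the top holds peaks with no input read, Dkk1 and Apc sit at the edge of the replicate cloud, and the members lie within the cloud on the right, from -1.10 to 1.74.

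The letters of the peaks were then compared with those of all peaks on the chromosomes. The extended motif occurred in 6 of the 45 nearest-gene peaks (13.3%), against 1053 of all 10064 (10.5%). A hexamer on either strand, which includes those within the extended motif and the DR1, occurred in 32 (71.1%), against 58.9%. A DR1 occurred in 2 (4.44%), those of Axin2 and Lef1, against 2.37%. With both hexamers spelled AGGTCA, a spelling chosen after these 2 sequences were seen, it occurred in 125 of all peaks (1.24%). With predicted transcripts, both the Axin2 and the Lef1 DR1 peak had another gene nearer. The TCF/LEF motif ATCAAAG, searched on both strands, occurred in none of the 45, against 2.18% of all peaks. These are counts of letters and not of bound sites.

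By position, TSS proximal peaks made up 20% of the 45 nearest-gene peaks and 36% of the whole set, and intergenic peaks 46.7% and 25.8%. Beyond 10 kb from the TSS lay 24 of them (53.3%), against 32.9%. This too rested on the annotation, since with predicted transcripts 6 of the 25 peaks still nearest to a member lay beyond 10 kb (24%), against 25.7% of all peaks. Within 1 kb of a TSS lay 40% of the 45, against 58% of all peaks, and with predicted transcripts 64% of the 25, against 61.4%. Of the ligand peaks 85.7% lay beyond 10 kb and none was TSS proximal, of the Frizzled peaks 55.6% and 22.2%, and of the relay peaks 25% and 62.5%. The Frizzled and relay shares rested on the annotation too. With predicted transcripts both Fzd8 peaks, both upstream Fzd7 peaks and both Axin2 peaks, all beyond 10 kb, had another gene nearer.

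For the wider pathway, 70 other Wnt genes were listed (further ligands, receptors, inhibitors, planar polarity proteins and nuclear co-factors). A nearest-gene peak was found for 36 (51.4%, against 33.2% of protein-coding genes), 19 had only a peak within 50 kb with another gene nearer (27.1% against 24.7%) and 15 had none (21.4% against 42.1%). The strongest of their nearest-gene peaks were those of the co-repressor Tle1 (84 and 109 ChIP reads over 10 input reads), the co-receptor Ptk7 (102 and 65 over 10), the nuclear co-factor Pygo2 (90 and 66 over 7) and the planar polarity gene Prickle1 (75 and 70 over 8). With another gene nearer were the peaks at Shc1 (near Pygo2, 111 and 91 over 5), Slc6a16 (near Dkkl1, 94 and 99 over 13), Adamtsl5 (near Apc2, 91 and 88 over 10) and Gng8 (near Dact3, 81 and 60 over 10). The Shc1 peak, 11454 bp from Pygo2, was the only one of these 8 that passed the test against the typical peak. It stood at a log2 ratio of 2.01 ± 0.53 (SE, edgeR adjusted p = 0.0142). The others also had fitted log2 ratios above 0, from 0.50 (Gng8) to 1.15 (Pygo2), but did not pass. These 8 were picked for their ChIP counts, which enter the ratio, while the 1.53% that passed in this direction is the share of all peaks, picked or not.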

How the data were processed

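NR2F2 binding was measured by ChIP-seq in 2 ChIP libraries and 1 input library, grouped by their labels. The authors deposited raw counts, 1 value for each peak and library. By the study's methods, single-end reads had been trimmed (Trim Galore 0.6.7), aligned to mm10 (Bowtie2) and filtered on alignment quality, with duplicates taken out by Picard 1.110. The authors called peaks with HOMER 4.11.1 on merged ChIP replicates and set them to 300 bp. The sources used here do not give the rule by which a read was counted in a peak.

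Distances ran from the nearer peak edge to TSSs of 45756 curated RefSeq transcripts (GRCm38, the assembly of mm10), and the 5 peaks on unplaced contigs had no gene. Predicted transcripts were left out of the main annotation and added in an alternative, which moved 20 of 45 peaks to another gene. Counts were fitted for all 10069 peaks with edgeR 4.0.16 (limma 3.58.1, R 4.3.3), with TMM factors or with equal library sizes, and DESeq2 1.42.0 as an alternative. The single input was assumed to vary like the ChIP libraries, so p-values measure the spread between the 2 ChIP libraries and counting error. Peaks were not filtered. Ratios of summary values had 0.5 added to each count. The replicates were compared by an exact binomial test, and letters of the peaks were searched with Python 3.11.15. The fits were also run on simulated counts with a set spread, which need not match the spread of these data.

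The members, the list of 70 other genes and the tests were chosen with earlier results of these data known. Every member with a nearest-gene peak is named with the counts at its peaks. Of the peaks with another gene nearer, the 8 with the highest summed ChIP count are named (others were named after their values were seen), as are every member with no peak and the 8 strongest peaks of the other list.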

Additional observations from a re-analysis of the deposited data

How the results depend on the processing

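Each count of members is set beside the share of all genes or peaks under the same setting. A peak within 50 kb of a TSS was found for 35 of 54 members (64.8%) and 56.1% of protein-coding genes. Within 10 kb it was 19 (35.2% against 34.3%) and within 100 kb 42 (77.8% against 69.7%). Members nearest to a peak numbered 29 with protein-coding TSSs only (53.7% against 35.5%), 28 by peak midpoint (51.9% against 32.7%), 22 with predicted transcripts (40.7% against 31.3%, losing Axin2, Fzd8, Lef1, Lrp5, Rspo1, Wnt10a and Wnt7b) and 20 with peaks at or above the median summed ChIP count (37% against 19.1%). With predicted transcripts, added after seeing the data, members nearest to at least 2 peaks went from 10 to 2 and to at least 3 from 5 to 1, nearest-gene peaks beyond 10 kb from 24 of 45 to 6 of 25, and those of ligands from 12 of 14 to 4 of 6. Relative to the typical peak, none of the member peaks tested passed, but only 21 of the 63 were tested with at least 10 input counts and only 6 had an adjusted p by DESeq2. At equal depth, 50 of 63 passed in the main test (79.4% against 80.7% of all peaks), 0 with the ChIP libraries 2 times deeper (as for all peaks), 61 with them shallower (96.8% against 97.9%), 62 with robust fitting (98.4% against 97.5%) or scaled replicates (98.4% against 97.9%), 35 by DESeq2 (55.6% against 59.6%), and 20 of 21 with at least 10 input counts (95.2% against 88.5%). Replicates differed at 0 member peaks, or at 2 against a share of 1/2 (3.17% against 0.228%). The median log2 ratio over the 63 peaks, averaged over the 2 ChIP libraries, was 2.12 ± 0.23 (SD, n = 2), 1.685 with 5 added to each count, and 1.96 to 2.29 from 1 ChIP replicate alone. Extended motifs were in 8 of the 63 peaks (12.7% against 10.5%), in 9 with 100 bp added on each side (12.3% of all peaks) and in 6 of the central 150 bp windows (7.02% of all peaks). The low input counts, with a median of 8 reads over the 63 peaks, limit every ratio. No paired analysis was possible because the single input carries no replicate number.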
